A study of Mus musculus with 26 samples.

Results

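The 10 genes described here encode the subunits and accessory factors of Polycomb repressive complex 2 (PRC2): Ezh2, Ezh1, Suz12, Eed, Rbbp4, Rbbp7, Jarid2, Mtf2, Phf19 and Aebp2. RNA 5-hydroxymethylcytosine (5hmC) peaks were assigned to them when the peak summit, the midpoint of the listed interval, lay within the span of the gene in build mm9. Of the 56538 peaks of the series, 146 met this rule, and overlapping intervals were merged into 50 of the 23367 regions of the series. Peaks were found in 8 of the 10 genes, all but Ezh1 and Phf19. Of the 22372 protein-coding genes, 32.2% held at least 1 peak. The 10 genes span 18.7 to 192 kb, beside a median of 15.4 kb over all coding genes. These shares were not matched for gene length or expression.

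PRC2 methylates histone H3 on lysine 27, a mark of repressed chromatin that keeps many developmental genes silent in embryonic stem cells. Ezh2 and Ezh1 are the alternative catalytic subunits, Suz12 and Eed complete the core, and the histone chaperones Rbbp4 and Rbbp7 bind it. Jarid2, Aebp2, Mtf2 and Phf19 are accessory proteins that help to recruit the complex to chromatin or tune its activity.

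hMeRIP-seq, in which fragmented total RNA is immunoprecipitated (IP) with an anti-5hmC antibody and sequenced, was carried out on 13 bulk IP samples from mouse, divided among 5 groups. The group WT ESC is of wild-type stem cells grown with leukemia inhibitory factor (LIF), and WT EB are the embryoid bodies that wild-type cells form when kept without LIF for 4 days. TKO ESC are stem cells of the genotype Tet1-Tet2-Tet3-KO, an established line that lacks the Tet dioxygenases, enzymes that oxidise 5-methylcytosine to 5hmC. Each of these groups had 3 replicates. Tet2-KI ESC and Tet2deltaRBD-KI ESC, with 2 replicates each, are picked clones of wild-type stem cells in which Tet2 was tagged at its C-terminal end at the endogenous locus, in the latter without the RNA-binding domain (RBD) of Tet2. Each group had input RNA samples as controls. The study describes the triplicates of stem cells and embryoid bodies as independent experiments.

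The lists held 498 to 10383 peaks, shortest in WT EB replicate 1 and longest in Tet2-KI ESC replicate 1, each an interval of 200 bp. The 9 lists other than those of the knock-ins carry a further column without a header, read here as the fold enrichment of IP over input at the summit from the fold change the lists are named for, with list medians of 5.43 to 7.28. The 4 knock-in lists hold positions alone. The read depth behind the lists is unknown, so a gene without a peak is one where none passed the threshold of the peak caller. Peaks fell in Tet1 in 11 libraries, all 3 TKO ESC libraries among them, in Tet2 in 5 libraries and none of TKO ESC, and in Tet3 in 1 library. Markers of stem cells or of embryoid bodies cannot be checked from peak lists, which do not measure expression.

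Jarid2 held more peaks than any other of the 10 genes, with 50 in 16 regions and 11 libraries over a gene of 192 kb. Mtf2 followed with 34 peaks in 10 regions and 10 libraries, Suz12 with 25 peaks in 12 regions and 9 libraries, and Aebp2 with 17 peaks in 4 regions and 9 libraries. Eed had 12 peaks in 3 regions, spread over 10 libraries. The remaining genes had fewer: Ezh2 had 4 peaks in 3 libraries, Rbbp7 3 peaks in 3 libraries and Rbbp4 1 peak. Coding genes with a peak had a median of 3. Jarid2 had more than 98.7% of them and Mtf2 more than 97.0%, Ezh2 had more than 54.6%, and Jarid2 is also a long gene beside the median span of 37.7 kb of peak-bearing genes. Per 10 kb of gene, Mtf2 came first with 7.85 peaks, then Suz12 with 6.09, Eed with 4.56, Aebp2 with 3.03 and Jarid2 with 2.60.

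The WT ESC libraries held 14, 18 and 11 peaks in these genes, the TKO ESC libraries 3, 14 and 11, and the WT EB libraries 2, 2 and 15. The Tet2-KI ESC libraries held 19 and 12 and the Tet2deltaRBD-KI ESC libraries 14 and 11. The counts followed the length of the lists in part: TKO ESC replicate 1 and WT EB replicates 1 and 2, with the shortest lists, were the lowest. Per 1000 listed peaks, WT ESC had 2.47 ± 0.748, TKO ESC 3.24 ± 0.130 and WT EB 3.12 ± 1.76 (SD, n = 3 each). The values were 1.95 ± 0.174 in Tet2-KI ESC and 3.17 ± 0.210 in Tet2deltaRBD-KI ESC (SD, n = 2 each), against 2.58 over all lists. On that scale the ranges of WT ESC and TKO ESC, and of each with WT EB, overlapped. Those of Tet2-KI ESC (1.83 to 2.08) and Tet2deltaRBD-KI ESC (3.02 to 3.32) did not, with lists of 5781 and 10383 peaks against 3318 and 4639. An exact permutation test of 2 against 2 cannot give a p below 0.333.

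**Figure D1:**
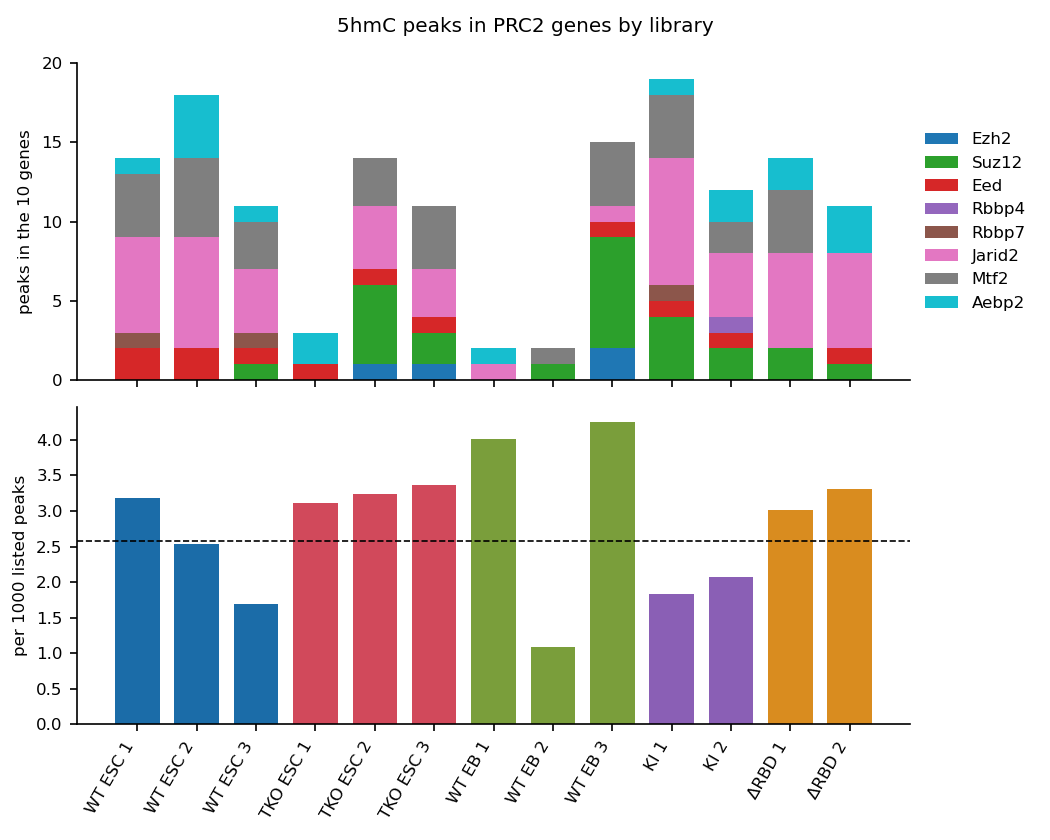
Upper panel, number of 5hmC peaks in the 10 genes in each of the 13 libraries, stacked by gene; lower panel, the same total per 1000 listed peaks, with the value over all lists as a dashed line. KI and ΔRBD stand for Tet2-KI ESC and Tet2deltaRBD-KI ESC, numbers are replicates, and 1 bar is 1 library. Suz12 peaks are most numerous in WT EB 3, where 7 of 15 peaks are in Suz12, while the WT ESC bars are made mainly of Jarid2 and Mtf2.

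Introns held 84 of the 146 peaks (57.5%), against 67.1% of all peaks in coding genes. The 5′ UTR held 22 peaks (15.1%, against 4.59%), coding sequence (CDS) 30 (20.5%, against 24.4%) and the 3′ UTR 10 (6.85%, against 3.83%). The 5′ UTR peaks came from Mtf2 (8 peaks), Eed (6), Suz12 (4), Rbbp7 (3) and Jarid2 (1). All 10 of the 3′ UTR were in Mtf2, 7 of them within intron 1 of its longest coding transcript. Counted by region, introns held 36 of 50, against 12987 of 18448 coding-gene regions with genes on 1 strand only. The 5′ UTR held 5 of the 50, against 1017, the CDS 7, against 3693, and the 3′ UTR 2, against 751. By region the intron share was not below that of the series, and the 3′ UTR share was close to it. Of the 50 regions, 20 had a peak in a single library, as did 53.6% of all regions of the series, 11 had one in at least 5 libraries, and none was listed in more than 8 of the 13. The shares are given side by side with no test, since the peaks of a region are repeats of 1 site.

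**Figure D2:**
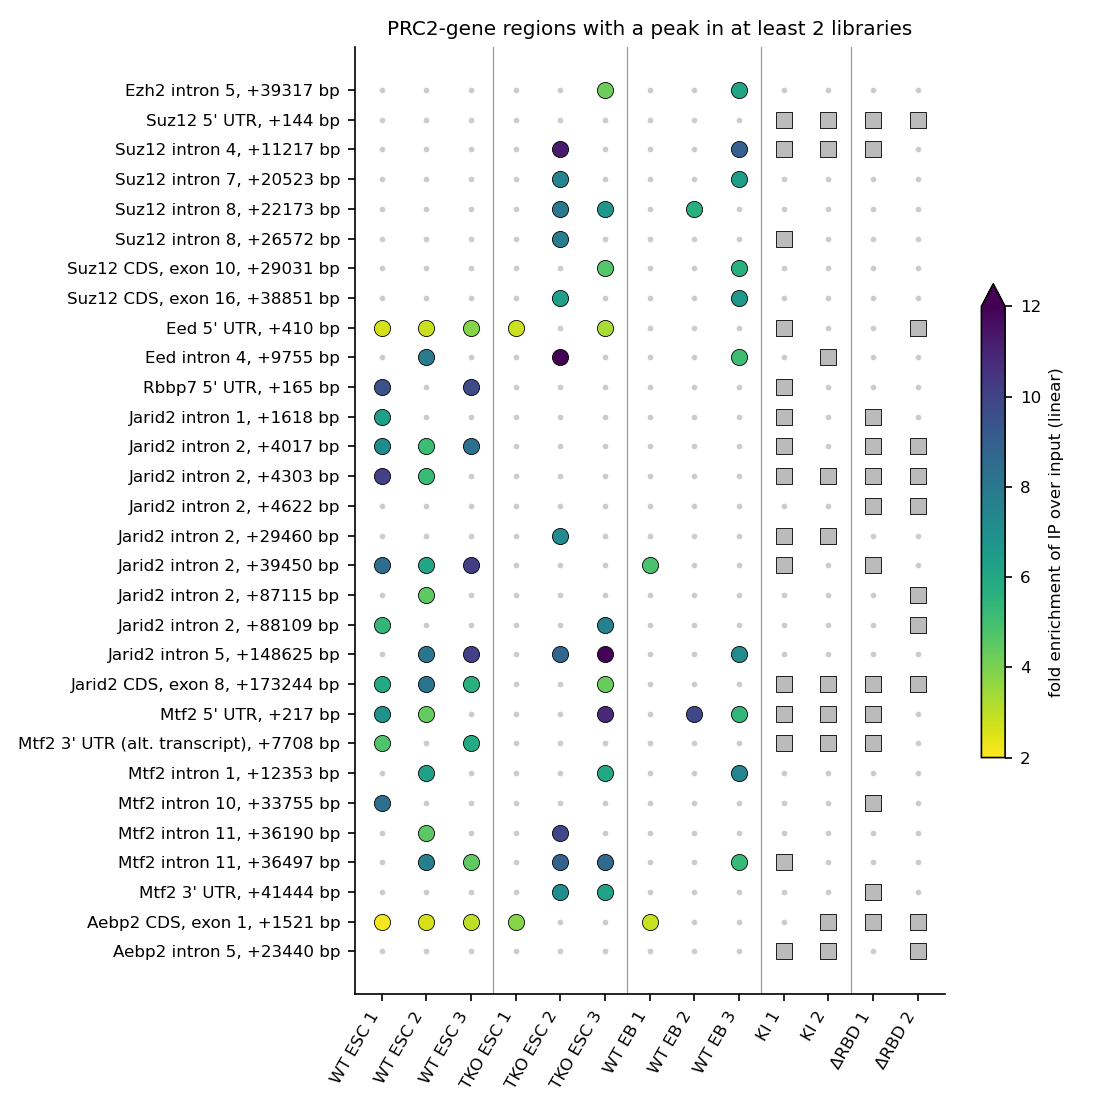
The 30 regions with a peak in at least 2 libraries (rows, with transcript part and distance of the summits from the annotated gene start) against the 13 libraries (columns, KI and ΔRBD for the knock-in groups). Circles are coloured by fold enrichment of IP over input, grey squares mark peaks listed without a value, and small dots mark no peak. The Suz12 rows are empty in WT ESC, whereas the Jarid2 rows at 4017 and 39450 bp have a circle in all 3 WT ESC libraries and none in TKO ESC.

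Of the catalytic subunits, Ezh1 (chr11:101052429-101087777) had no peak. Ezh2 (chr6:47480273-47545340, minus strand) had its peaks in TKO ESC replicates 2 and 3 and WT EB replicate 3 alone, between exons 5 and 7 of 20. Its leading region, chr6:47505915-47506131 at the border of exon 5 and intron 5, had a fold enrichment of 4.25 in TKO ESC replicate 3 and 6.07 in WT EB replicate 3. The other Ezh2 peaks stood at 7.10 in TKO ESC replicate 2 (intron 6) and 4.79 in WT EB replicate 3 (CDS of exon 6). All 4 lay in or at an exon, and each was below the median of its own list.

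Suz12, the zinc-finger subunit that holds the core together, was listed mainly outside WT ESC. The WT ESC libraries held 0, 0 and 1 Suz12 peaks, the TKO ESC libraries 0, 5 and 2 and the WT EB libraries 0, 1 and 7. The Tet2-KI ESC libraries held 4 and 2, and the Tet2deltaRBD-KI ESC libraries 2 and 1. The only Suz12 peak of WT ESC, in intron 7 in replicate 3, had a fold enrichment of 3.78. WT EB replicate 3 thus held most of the EB peaks, and no Suz12 region had a peak in all 3 libraries of WT ESC, of TKO ESC or of WT EB. Of its 25 peaks, 18 lay in an exon or had an interval that reached one, among them 6 of the 7 in WT EB replicate 3 and 4 of the 5 in TKO ESC replicate 2.

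The most shared Suz12 region lay in intron 4 of 15, chr11:79817699-79817996 on the plus strand, with summits 5172 to 5270 bp after the 5′ splice site. It had a fold enrichment of 11.3 in TKO ESC replicate 2 and 8.93 in WT EB replicate 3, and was listed in both Tet2-KI ESC libraries and Tet2deltaRBD-KI ESC replicate 1. No WT ESC library listed it. Its sequence is shown because it is the Suz12 site found in most libraries. It is read on the strand of the transcript from build NCBIM37, the assembly of mm9, like all sequences here. Capitals in the sequences mark GAGAGA or AGAGAG, the other-strand reading of the UC-rich letters TCTCTC and CTCTCT, and this one holds neither pair.
Suz12 intron 4: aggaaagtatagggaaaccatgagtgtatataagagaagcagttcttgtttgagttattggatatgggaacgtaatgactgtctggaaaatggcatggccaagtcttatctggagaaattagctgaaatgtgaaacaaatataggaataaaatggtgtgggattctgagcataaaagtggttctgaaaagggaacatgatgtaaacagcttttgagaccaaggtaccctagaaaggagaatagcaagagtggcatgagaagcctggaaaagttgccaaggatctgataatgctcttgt

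The 5′ UTR of Suz12 (chr11:79806642-79806866, exon 1) had a peak in all 4 knock-in libraries and in none of the 9 others. How many series regions share that presence was not counted. The 5′ UTR region holds the letters TCTCTC or CTCTCT, with 59.1% C and T. A site in 3 libraries was found in intron 8 at chr11:79828658-79828887, whose summits lay 20, 43 and 50 bp after the 5′ splice site: fold enrichment was 7.90 and 6.68 in TKO ESC replicates 2 and 3 and 5.64 in WT EB replicate 2. In 4 of the Suz12 regions the interval also overlapped Gm16706, a lincRNA on the opposite strand. The protocol names no strand-specific library, so reads of the genes cannot be told apart there.

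Eed, the subunit that binds trimethylated lysine 27, was listed at the start of the gene, in intron 1 and in intron 4. The start region (chr7:97128913-97129394, minus strand, 5′ UTR and beginning of the CDS in exon 1) had fold enrichments of 2.63, 2.83 and 3.82 in WT ESC, 2.80 in TKO ESC replicate 1 and 3.32 in TKO ESC replicate 3. It had no peak in TKO ESC replicate 2 or in any WT EB library, and was also listed in Tet2-KI ESC replicate 1 and Tet2deltaRBD-KI ESC replicate 2. Every value was below the median of its list, and the WT ESC and TKO ESC values overlapped, with means of 3.09 ± 0.638 (SD, n = 3) and 3.06 ± 0.365 (SD, n = 2). No region in another coding gene had the same presence in all 13 libraries.

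The intron 4 region of Eed, chr7:97119629-97119850, was listed in 1 library each of WT ESC (replicate 2, fold enrichment 7.89), TKO ESC (replicate 2, 16.2), WT EB (replicate 3, 5.10) and Tet2-KI ESC (replicate 2). The value in TKO ESC was the highest of all 90 fold enrichments in the 10 genes, which had a median of 6.07 and a lowest value of 2.13. The remaining Eed region, chr7:97125475-97125674 in intron 1, was a single peak of WT ESC replicate 1 with a fold enrichment of 3.95, 16 bp before the 3′ splice site. The sequence of the intron 4 region, shown for its value in TKO ESC, has 33.8% G and C and no marked letters.
Eed intron 4: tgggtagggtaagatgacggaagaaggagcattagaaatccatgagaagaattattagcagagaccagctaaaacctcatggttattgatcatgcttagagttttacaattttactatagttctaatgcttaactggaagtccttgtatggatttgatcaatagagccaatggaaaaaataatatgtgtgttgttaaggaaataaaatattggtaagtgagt

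Among the chaperones, Rbbp7 had 1 region in its 5′ UTR (chrX:159198392-159198617), with fold enrichments of 9.55 and 9.74 in WT ESC replicates 1 and 3, and a peak in Tet2-KI ESC replicate 1. Neither TKO ESC nor WT EB listed it, nor did WT ESC replicate 2, the longest of the WT ESC lists. Both values stood in the upper part of their lists, with 86.4% and 89.9% of the peaks at or below them. Rbbp4 (chr4:128984344-129012614, minus strand) had 1 peak, in intron 2 in Tet2-KI ESC replicate 2.

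Jarid2, a JmjC-domain protein without demethylase activity that anchors PRC2 on chromatin, is annotated at chr13:44824843-45017012 on the plus strand. Introns held 41 of its 50 peaks and none of those intervals reached an exon; 11 of its 16 regions lay in intron 2, which is 91463 bp long. The WT ESC libraries held 6, 7 and 4 Jarid2 peaks, the TKO ESC libraries 0, 4 and 3 and the WT EB libraries 1, 0 and 1. Both knock-in groups were in the range of WT ESC or above, with 8 and 4 in Tet2-KI ESC and 6 and 6 in Tet2deltaRBD-KI ESC.

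Near the start of intron 2, 3 regions stood side by side. The first, chr13:44828743-44828969, had fold enrichments of 7.17, 5.16 and 8.29 in WT ESC and was listed in Tet2-KI ESC replicate 1 and both Tet2deltaRBD-KI ESC libraries. The second, chr13:44829030-44829252, had 10.1 and 5.24 in WT ESC replicates 1 and 2 and was listed in all 4 knock-in libraries. The third, chr13:44829355-44829575, was listed in both Tet2deltaRBD-KI ESC libraries and nowhere else. Joined over gaps of up to 200 bp, the cluster had a peak in all 7 libraries of WT ESC, Tet2-KI ESC and Tet2deltaRBD-KI ESC and in none of the 6 libraries of TKO ESC and WT EB. With the same joining, 479 of 1512 series regions in every WT ESC library (31.7%) had no TKO ESC peak. For WT EB the share was 830 of 1512 (54.9%). How many series regions share the whole pattern of the cluster was not counted. The 3 sequences are shown because of the presence of the cluster over whole groups. They hold 72.7%, 70.0% and 63.3% G and C, and the second has GAGAGA once.
Jarid2 intron 2 at 4017 bp: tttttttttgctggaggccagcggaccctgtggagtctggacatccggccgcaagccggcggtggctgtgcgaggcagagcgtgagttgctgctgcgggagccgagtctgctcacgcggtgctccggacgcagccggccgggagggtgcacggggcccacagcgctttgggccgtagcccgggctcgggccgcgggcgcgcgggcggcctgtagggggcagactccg
Jarid2 intron 2 at 4303 bp: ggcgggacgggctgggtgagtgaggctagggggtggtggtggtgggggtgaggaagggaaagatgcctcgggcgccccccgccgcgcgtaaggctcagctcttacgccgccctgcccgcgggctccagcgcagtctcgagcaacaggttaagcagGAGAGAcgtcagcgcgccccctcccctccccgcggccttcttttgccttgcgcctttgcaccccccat
Jarid2 intron 2 at 4622 bp: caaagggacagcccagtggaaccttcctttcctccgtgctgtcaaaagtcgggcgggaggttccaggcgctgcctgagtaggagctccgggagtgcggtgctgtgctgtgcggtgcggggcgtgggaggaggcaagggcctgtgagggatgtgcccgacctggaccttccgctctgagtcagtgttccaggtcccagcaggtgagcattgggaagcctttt

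Further along intron 2, chr13:44864166-44864411 had fold enrichments of 8.46, 6.10 and 10.2 in WT ESC (mean 8.27 ± 2.08, SD, n = 3), 4.88 in WT EB replicate 1 and no peak in TKO ESC. It was listed in replicate 1 of each knock-in group. All 3 WT ESC values were above the medians of their lists, the WT EB value below. At chr13:44854197-44854414 a peak was listed in both Tet2-KI ESC libraries, in neither Tet2deltaRBD-KI ESC library and, with a fold enrichment of 7.25, in TKO ESC replicate 2. These regions are shown for their presence in 1 group of a pair, and each carries a run of alternating G and A.
Jarid2 intron 2 at 39450 bp: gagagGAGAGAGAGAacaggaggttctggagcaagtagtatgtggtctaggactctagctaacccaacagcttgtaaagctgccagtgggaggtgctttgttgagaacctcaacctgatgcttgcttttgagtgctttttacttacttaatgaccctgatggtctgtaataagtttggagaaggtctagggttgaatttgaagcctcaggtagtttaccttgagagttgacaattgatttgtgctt
Jarid2 intron 2 at 29460 bp: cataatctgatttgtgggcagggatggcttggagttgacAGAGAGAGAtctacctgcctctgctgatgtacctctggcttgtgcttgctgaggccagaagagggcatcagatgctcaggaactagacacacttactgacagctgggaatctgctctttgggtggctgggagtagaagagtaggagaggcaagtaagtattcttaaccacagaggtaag

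Intron 5 held a region at chr13:44973348-44973575. Fold enrichment was 8.09 and 10.1 in WT ESC replicates 2 and 3, 8.76 and 11.9 in TKO ESC replicates 2 and 3 and 7.23 in WT EB replicate 3, with no peak in any knock-in library. The 5 libraries are those whose descriptions begin with 1703, apart from WT EB replicate 2; the replicate 1 libraries begin with 1608 (WT ESC, TKO ESC) or 1610 (WT EB). The part of this division in the result was not tested.
Jarid2 intron 5: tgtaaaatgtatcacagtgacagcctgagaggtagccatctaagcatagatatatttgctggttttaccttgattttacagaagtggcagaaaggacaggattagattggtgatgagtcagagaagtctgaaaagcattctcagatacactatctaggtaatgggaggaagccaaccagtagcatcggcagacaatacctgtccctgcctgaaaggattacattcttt

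The CDS of Jarid2 carried 1 region, in exon 8 of 19 (chr13:44997956-44998255). It had fold enrichments of 5.96, 8.15 and 5.66 in WT ESC and 4.34 in TKO ESC replicate 3, no peak in WT EB, and a peak in all 4 knock-in libraries. With 8 libraries it was among the most shared sites of the 10 genes, and the TKO ESC value was below all 3 WT ESC values. Its sequence has 34.7% C and T on the transcript strand. In 7 other coding-gene regions the same 8 libraries had a peak, the nearest by fold enrichment in WT ESC being those of Myst4 (7.41, 5.29 and 5.21 in replicates 1 to 3), Rora (5.54, 13.1 and 11.4) and Stk4 (7.33, 12.8 and 14.3).
Jarid2 exon 8: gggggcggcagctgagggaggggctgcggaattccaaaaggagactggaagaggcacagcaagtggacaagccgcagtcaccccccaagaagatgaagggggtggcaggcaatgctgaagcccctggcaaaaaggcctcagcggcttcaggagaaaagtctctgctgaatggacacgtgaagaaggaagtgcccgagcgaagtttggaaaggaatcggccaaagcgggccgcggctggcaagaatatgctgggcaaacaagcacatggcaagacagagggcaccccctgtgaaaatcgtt

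**Figure D3:**
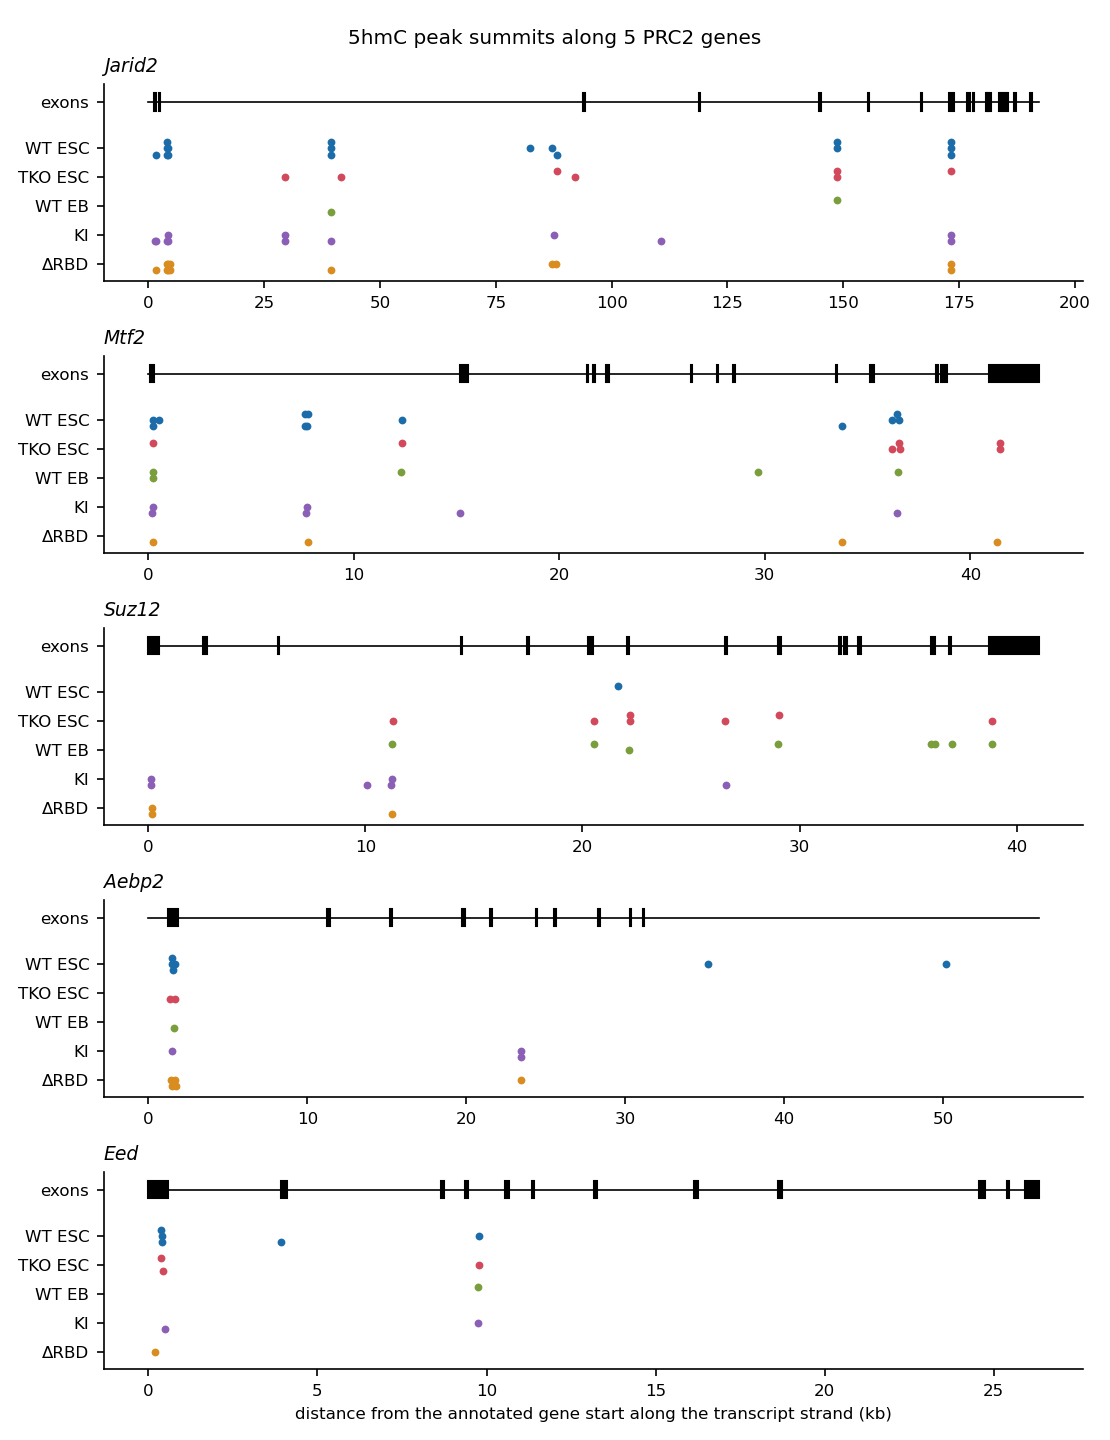
Peak summits along Jarid2, Mtf2, Suz12, Aebp2 and Eed, with the horizontal axis giving the distance from the annotated gene start in kb. Black boxes are exons of the transcript with the longest CDS, and each point is 1 peak of 1 library, set at 3 heights by replicate within its group. Jarid2 peaks of WT ESC cluster at the start of intron 2, at 39450 bp and in exon 8, while Suz12 peaks of TKO ESC and WT EB lie along the body of the gene, all but those in intron 4 in or next to an exon.

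Mtf2, a Tudor-domain protein of the Polycomb-like family, had 4, 5 and 3 peaks in WT ESC, 0, 3 and 4 in TKO ESC, 0, 1 and 4 in WT EB, 4 and 2 in Tet2-KI ESC and 4 and 0 in Tet2deltaRBD-KI ESC. Its 5′ UTR (chr5:108494793-108495031, plus strand) had fold enrichments of 6.95 and 4.42 in WT ESC replicates 1 and 2, 10.9 in TKO ESC replicate 3, and 9.87 and 5.40 in WT EB replicates 2 and 3. Both Tet2-KI ESC libraries and Tet2deltaRBD-KI ESC replicate 1 listed it too. It was present in every group, with values that overlapped between WT ESC and WT EB.

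A second Mtf2 region, chr5:108502207-108502560, lies in intron 1 of the longest coding transcript and in the 3′ UTR of a shorter one. It had fold enrichments of 4.76 and 5.91 in WT ESC replicates 1 and 3 and was listed in both Tet2-KI ESC libraries and Tet2deltaRBD-KI ESC replicate 1, with none in TKO ESC or WT EB. In intron 11, chr5:108531009-108531355 had 7.72 and 4.43 in WT ESC replicates 2 and 3, 8.87 and 8.68 in TKO ESC replicates 2 and 3, and 5.24 in WT EB replicate 3, with a peak in Tet2-KI ESC replicate 1. Both TKO ESC values were above both WT ESC values, but the TKO ESC lists also had the higher medians. By rank within its own list, WT ESC replicate 2, with 78.7% of the peaks at or below its value, stood above TKO ESC replicates 2 and 3 (67.0% and 74.4%), and WT ESC replicate 3 (26.0%) below both. The 200 bp interval of WT ESC replicate 2, chr5:108531102-108531301, is shown as an A- and T-rich example with 28.5% G and C.
Mtf2 intron 11: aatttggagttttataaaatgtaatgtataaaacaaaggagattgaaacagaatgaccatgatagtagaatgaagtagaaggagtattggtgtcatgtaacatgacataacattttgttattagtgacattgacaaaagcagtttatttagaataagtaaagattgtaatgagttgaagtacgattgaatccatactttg

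The 3′ UTR of Mtf2 was listed in TKO ESC replicates 2 and 3 (7.09 and 6.18) and Tet2deltaRBD-KI ESC replicate 1, at a site where Tmed5 overlaps on the opposite strand. Phf19, the other Polycomb-like gene of the list (chr2:34749277-34769546), had no peak in any library.

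Aebp2, a zinc-finger cofactor, was listed mainly in the CDS of exon 1 (chr6:140572260-140572813, plus strand), with 12 peaks in 8 libraries. The highest fold enrichment per library was 2.13, 2.65 and 2.99 in WT ESC, 3.82 in TKO ESC replicate 1 and 2.85 in WT EB replicate 1. Peaks were also listed in Tet2-KI ESC replicate 2 and both Tet2deltaRBD-KI ESC libraries. All 5 values were low in their lists, with at most 12.97% of the peaks at or below them. The interval of WT ESC replicate 3, chr6:140572370-140572569, is given because this is the most G- and C-rich of the CDS sites, at 77.0%.
Aebp2 exon 1: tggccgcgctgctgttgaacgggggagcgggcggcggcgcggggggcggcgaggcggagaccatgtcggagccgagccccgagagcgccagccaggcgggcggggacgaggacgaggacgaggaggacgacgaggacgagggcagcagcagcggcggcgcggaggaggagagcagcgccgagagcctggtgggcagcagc

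An Aebp2 region in intron 5, chr6:140594307-140594528, was listed in both Tet2-KI ESC libraries and Tet2deltaRBD-KI ESC replicate 2 alone. The remaining 2 Aebp2 regions were single peaks of WT ESC replicate 2 in introns, at 6.07 and 5.20.

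The WT ESC and TKO ESC comparison asked which sites of stem cells lose their peak without the Tet enzymes. In the 10 genes, 5 regions had a peak in every WT ESC library: the first Jarid2 intron 2 region, Jarid2 intron 2 at 39450 bp, Jarid2 exon 8, Aebp2 exon 1 and Eed at its start. Of these, the 2 Jarid2 intron 2 regions were absent from all TKO ESC lists, against 494 of 1532 such regions (32.2%) over the series. No region of the 10 genes had a peak in every TKO ESC library. TKO ESC replicate 1 had 964 peaks, and without it 4 regions were in both others, of which Suz12 intron 8 and the Mtf2 3′ UTR had no WT ESC peak, against 318 of 1694 (18.8%) over the series. Leaving out WT ESC replicate 2 gave 4 of 7 regions, with Mtf2 at 7708 bp and Rbbp7 added, while the series share was 939 of 2150 (43.7%).

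Fold enrichment could be compared where libraries of both groups had a peak, and libraries without one were left out of the fit. No region of the 10 genes had a value in all 6 libraries. With at least 2 values in each group, 3 regions entered a limma fit over 1179 regions, in which 0 regions (0%) had an adjusted p under 0.05 and 121 an unadjusted p under 0.05. On the log2 scale WT ESC minus TKO ESC was 0.0016 ± 0.38 (SE) at the start of Eed (limma adjusted p = 0.999). It was -0.18 ± 0.43 in Jarid2 intron 5 (limma adjusted p = 0.877) and -0.58 ± 0.45 in Mtf2 intron 11 (limma adjusted p = 0.674). The sign at Eed turned without WT ESC replicate 3 (-0.16) and without TKO ESC replicate 1 (-0.12), and that of Jarid2 intron 5 after subtracting list medians (0.13) and without TKO ESC replicate 3 (0.045). The Mtf2 value ran from -0.98 without WT ESC replicate 2 to -0.19 without WT ESC replicate 3, and was -0.27 after subtracting list medians (limma adjusted p = 0.891). Each difference was below 2 times its standard error, and sites without a TKO ESC peak are not in this comparison.

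**Figure D4:**
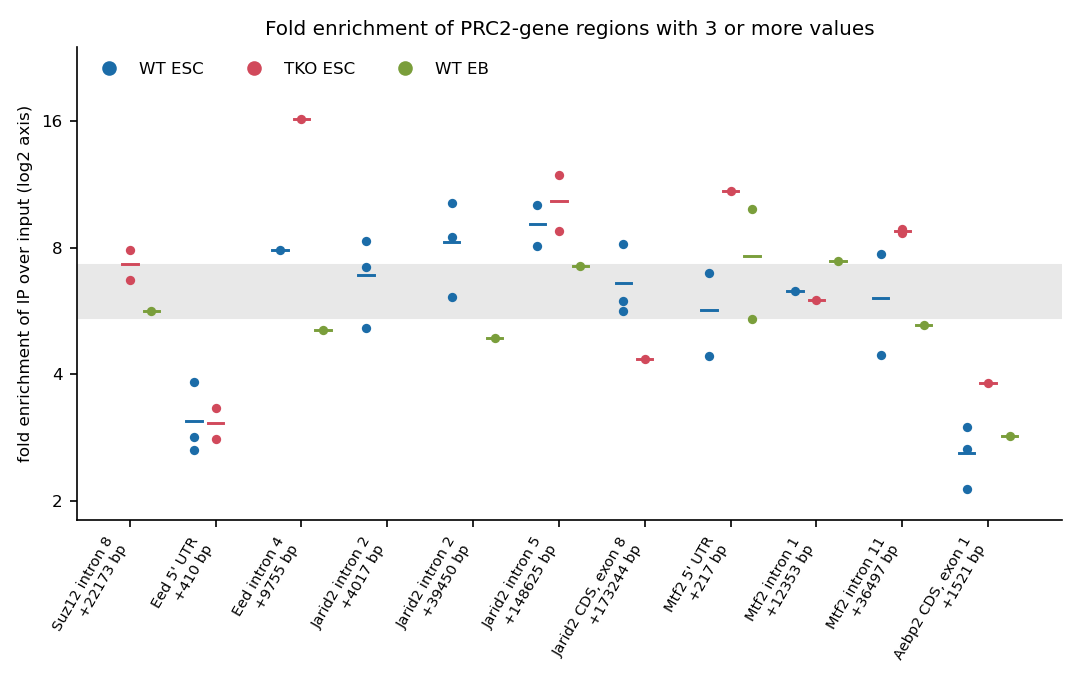
Fold enrichment of IP over input (vertical log2 axis) in the 11 regions with at least 3 values, by group; each point is 1 library and short bars are group means. The grey band spans the list medians of 5.43 to 7.28. Values at the start of Eed and in Aebp2 exon 1 lie below the band in every library, those of Jarid2 intron 5 lie in or above it, and groups with no point had no peak.

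Between WT ESC and WT EB, which differ by 4 days without LIF, 3 of the same 5 regions had no peak in any EB library: the first Jarid2 intron 2 region, Jarid2 exon 8 and the start of Eed. Over the series 841 of 1532 regions (54.9%) met that rule. The other 2, Jarid2 intron 2 at 39450 bp and Aebp2 exon 1, had a peak in WT EB replicate 1 alone, the shortest list, and without that library the count was 5 of 5, against 918 of 1532 (59.9%) over the series. Without WT ESC replicate 2 it was 5 of 7, against 1379 of 2150 (64.1%). No region of the 10 genes had a peak in all 3 WT EB libraries.

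In the limma fit over 730 regions with at least 2 values in each of WT ESC and WT EB, 0 regions (0%) had an adjusted p under 0.05 and 141 an unadjusted p under 0.05. One region of the 10 genes was in it, the 5′ UTR of Mtf2. WT ESC minus WT EB was -0.40 ± 0.47 (SE) on the log2 scale (limma adjusted p = 0.665), and -0.12 after subtracting list medians (limma adjusted p = 0.933). It ran from -0.83 without WT EB replicate 3 to 0.036, with the sign turned, without WT EB replicate 2. With a replicate block only the replicate 2 pair, 1 library against 1, was left, at -1.16. A peak list does not measure transcript level, and in bulk samples fewer cells of a type and less RNA per cell cannot be told apart.

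Intervals of intronic peaks that reached an exon were unevenly spread over the groups: 1 of 25 in WT ESC, 5 of 17 in TKO ESC, 5 of 12 in WT EB, 0 of 17 in Tet2-KI ESC and 0 of 13 in Tet2deltaRBD-KI ESC. Over all coding genes the shares were 16.01%, 29.3%, 47.7%, 18.6% and 20.3%. In the 10 genes 8 of these 11 peaks were in Suz12, 2 in Ezh2 and 1 in Eed, and none in Jarid2, Mtf2 or Aebp2.

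The knock-in comparison asked whether sites depend on the RNA-binding domain of Tet2. Both Tet2-KI ESC libraries listed 8 regions of the 10 genes: Suz12 at the 5′ UTR and in intron 4, the second Jarid2 intron 2 region, Jarid2 at 29460 bp and in exon 8, Mtf2 at the 5′ UTR and at 7708 bp, and Aebp2 intron 5. Jarid2 at 29460 bp alone had no peak in Tet2deltaRBD-KI ESC, against 1069 of 2999 regions (35.6%) over the series. The count was 4 of 12 without Tet2-KI ESC replicate 1 and 8 of 19 without replicate 2, with series shares of 55.4% and 69.3%. It was 4 of 8 without Tet2deltaRBD-KI ESC replicate 1 and 2 of 8 without replicate 2, with series shares of 66.9% and 40.1%.

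In the reverse direction, 6 regions were in both Tet2deltaRBD-KI ESC libraries and 1 of them, the third Jarid2 intron 2 region, had no Tet2-KI ESC peak, against 217 of 1373 (15.8%). Once regions up to 200 bp apart were joined, this count was 0, as the neighbouring sites were listed in both groups. Without Tet2deltaRBD-KI ESC replicates 1 and 2 in turn it was 3 of 10 and 3 of 13, with series shares of 49.2% and 30.3%. Without Tet2-KI ESC replicates 1 and 2 in turn it was 2 of 6 both times, with series shares of 26.9% and 26.4%. An exact permutation test of 2 libraries against 2 has 0.333 as its smallest p, and one of 3 against 3 has 0.1, so no test of single regions was made on presence.

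On the strand of the transcript the peaks of the 10 genes held a median of 43.0% C and T (range 27.5 to 63.5%), against 40.5% over all peaks in coding genes. The letters TCTCTC or CTCTCT were found in 9 of 146 peaks (6.16%, against 8.25% of all), and GAGAGA or AGAGAG in 36 (24.7%, against 28.1%). A tandem repeat was found in 1 of the 146 (0.685%), a CA repeat of 21 nt in an Aebp2 intron, against 7.51% of all. None of the 146 had more than 70% C and T, against 2.57% of all. The GAGAGA or AGAGAG letters were in all 3 Rbbp7 peaks, 15 of 50 in Jarid2 and 10 of 34 in Mtf2, and in none of Eed or Ezh2. As no strand-specific library is named, it is not known from which strand a fragment came, and a match is a description of the letters.

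**Figure D5:**
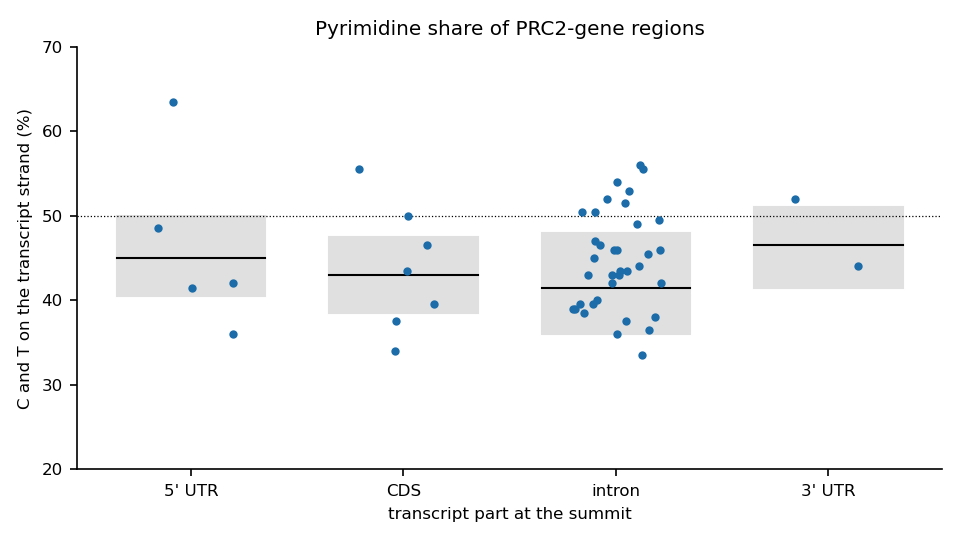
Share of C and T on the transcript strand (percent) in 1 interval of 200 bp for each of the 50 regions, by transcript part at the summit. Points are regions of the 10 genes, grey boxes the interquartile range of all coding-gene regions of that part and black lines their medians; the dotted line is 50%. Most points lie below 50%, as do the medians of all 4 parts.

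Of 28 other Polycomb genes, 18 had a peak, with 157 peaks in 64 regions. The share over all coding genes was 32.2%, not matched for gene length or expression. In PRC1, the complex that ubiquitinates histone H2A, 10 of 19 genes had one, led by Phc1 with 42 peaks in 11 libraries. The 2 H3K27 demethylases had 26 peaks (Kdm6b 15, Kdm6a 11), and 3 of 4 H2A deubiquitinase genes had 36 (Asxl2 18, Asxl1 16, Bap1 2). Only 2 regions of these 28 genes, both in Phc1, had a peak in every WT ESC library, and neither lacked a peak in TKO ESC or in WT EB. Of 10 regions in both Tet2-KI ESC libraries, 3 had none in Tet2deltaRBD-KI ESC (in Asxl2, Cbx6 and Kdm6a), against 35.6% over the series, and of 7 in both Tet2deltaRBD-KI ESC libraries 1 had none in Tet2-KI ESC, against 15.8%.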

How the data were processed

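Peak lists of 13 hMeRIP-seq IP libraries were analysed. Per the study's methods, the authors removed rRNA and tRNA reads (Bowtie2), trimmed with Trimmomatic, mapped to mm9 with STAR and called peaks of each IP against its own input with MACS2, versions not given in the sources used here. The deposited ratio, in a column without a header, was read as the fold enrichment of IP over input at the summit, per library and not normalised between libraries, as the lists are named for a fold change and come from MACS2, and the other deposited columns used give interval positions. No counts were used, so depth is unknown.

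Intervals of all libraries were merged where they overlapped by at least 1 bp and placed on GENCODE M1 gene models of NCBIM37. A region was replicated when every library of a group listed it. Log2 fold enrichment, the highest per library and region, was compared with limma (Benjamini-Hochberg over all regions of the fit). The intended fit on regions with a value in every library of both groups (283 for WT ESC and TKO ESC, 94 for WT ESC and WT EB) held no region of the 10 genes, so the fit with at least 2 values a group was added. Replicate numbers deviated together between WT ESC and TKO ESC (correlations 0.331, 0.126 and 0.119 for replicates 1 to 3) but not in every pair with WT EB (0.285, 0.152 and -0.018). No list was a duplicate (at most 1.97% identical intervals over 78 pairs).

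Regions given per library were those listed in every library of a group and the most shared one of each gene. Eed intron 4, Suz12 intron 8, the Mtf2 3′ UTR, Jarid2 intron 5, Mtf2 intron 11 and the single peaks given for Eed intron 1, Suz12 intron 7, Ezh2 and the Aebp2 introns were added after their values were seen. The genes, gene lists and comparisons were chosen with earlier results of these data known. Tandem repeats were units of 1 to 4 nt over at least 18 nt (20 nt for 4). Alternatives were stricter or shortened lists, libraries whose description begins with 1703, an overlap of 100 bp, 2 of 3 replicates, interval instead of summit in the gene, joining over 200 bp, a replicate block, centring on list medians, an exact permutation test and leaving out each replicate. Code was tested on simulated data. Python 3.11.15, pandas 2.3.3, numpy 2.4.6, matplotlib 3.10.9, R 4.3.3 and limma 3.58.1 were used.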

Additional observations from a re-analysis of the deposited data

How the results depend on the processing

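Depth and transcript level are unknown, groups are small, and sites without a peak have no fold enrichment. WT ESC regions of the 10 genes without TKO ESC numbered 2 of 5 (32.2% over the series), but 1 of 1 (33.6%) among peaks above the median of their list and 5 of 11 (49.7%) with 2 of 3 replicates, and 2 to 4 with 1 replicate left out. In lists of 498 peaks no region of the 10 genes was in all WT ESC libraries, so that the counts of 0 there test nothing. WT ESC regions without WT EB numbered 3 of 5 (54.9%), but 1 of 1 (56.9%) and 6 of 11 (67.8%) under the same settings and 5 of 7 (63.9%) with the libraries of the 1703 prefix only, and 3 to 5 with 1 replicate left out. The 1 region above its list medians, Jarid2 intron 2 at 39450 bp, is not among those 3. TKO ESC regions without WT ESC were 0 of 0, but 2 of 4 (19.8%) with the 1703 prefix and 2 of 5 (17.4%) with 2 of 3 replicates, and 0 to 2 with 1 replicate left out; both were Suz12 intron 8 and the Mtf2 3′ UTR. The Tet2-KI ESC count of 1 was 2 to 8 with 1 replicate left out. The Tet2deltaRBD-KI ESC count of 1 was 0 with regions joined over 200 bp and 2 to 3 with 1 replicate left out. An overlap of 100 bp and the interval in place of the summit moved no presence count.

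The limma fit of WT ESC and TKO ESC called 0 of 283 regions, with a replicate block too, and 10 at an unadjusted p under 0.05. That of WT ESC and WT EB called 0 of 94 regions (13 unadjusted), but 7 with a replicate block, 4 after subtracting list medians, and 0 to 1 with 1 replicate left out; none is in the 10 genes. The exact permutation test cannot give a p below 0.1 with 3 libraries a group, so its counts of 0 say nothing. With at least 2 values a group, the replicate block changed no call of a PRC2 gene. For the Mtf2 5′ UTR it left the replicate 2 pair alone, 1 library against 1, at -1.16, against -0.40 without the block and -0.12 after subtracting list medians. The log2 difference changed sign in 5 of 32 values over 4 regions: Jarid2 intron 5 was 0.13 after subtracting list medians and 0.045 without TKO ESC replicate 3, Eed -0.16 without WT ESC replicate 3 and -0.12 without TKO ESC replicate 1, and the Mtf2 5′ UTR 0.036 without WT EB replicate 2. With 1 replicate left out these 3 ran from -0.40 to 0.045, -0.16 to 0.12 and -0.83 to 0.036, and Mtf2 intron 11 from -0.98 to -0.19. The limma adjusted p of these 4 regions was 0.665 to 0.999 in the main fits and 0.891 to 0.967 after subtracting list medians.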
